A study of Homo sapiens with 9 samples.

Results

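The 9 genes described here carry out antigen presentation by major histocompatibility complex (MHC) class I, and they were chosen by name, with every probe set that the array assigns to them alone. They are the class I heavy chains HLA-B, HLA-C, HLA-E and HLA-F, the light chain B2M, the peptide transporter subunits TAP1 and TAP2, the loading factor TAPBP and the transactivator NLRC5. All 9 are among the 19775 genes with a probe set of their own, and they hold 25 of the 54675 probe sets on the array. B2M lies on chromosome 15, NLRC5 on chromosome 16 and the other 7 genes on chromosome 6. Of the 25 probe sets, 24 passed the filter on low signals. The remaining one, 208428_at for TAP2, lay below the array median on all 9 arrays and was not tested.

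The cells were HT-29, a human colon adenocarcinoma line grown as monolayers. Cultures received 5-aza-deoxycytidine (5-Aza), a cytidine analog that is built into DNA and traps DNA methyltransferases, at 0, 5 or 10 µM, where 0 µM was the vehicle, DMSO, alone. By the methods of the study the exposure lasted 5 days. Each dose had 3 cultures, and their RNA was read on Affymetrix U133 Plus microarrays, 1 for each culture, so that there were 9 arrays of a single cell line under a single drug. Values are log2 signals, so a difference of 1 is a 2-fold change. A signal compares doses for 1 probe set and says nothing about how 1 probe set ranks against another.

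MHC class I molecules show peptides from inside the cell to CD8 T cells and to natural killer cells. The proteasome cuts proteins into peptides, the TAP1 and TAP2 subunits carry these into the endoplasmic reticulum, and tapasin (encoded by TAPBP) holds the transporter next to a heavy chain paired with beta-2-microglobulin until a fitting peptide is bound. Transcription of the heavy chain and loading genes is raised by interferons through interferon regulatory factors (IRF) and by NLRC5, which works with RFX, CREB/ATF and NF-Y factors at a shared group of promoter boxes. Colon tumours and other cancers are known to lower class I expression, in some cases together with promoter methylation.

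The upstream sequences of the genes show where some of these boxes may lie. The box bound by RFX was not searched for. RefSeq (GRCh38.p14) gave a promoter for 7 of the 9 genes. HLA-E and NLRC5 were without an entry in the table used. Both strands of the 250 bases upstream of each start were searched for an IRF core (AANNGAAA), the CREB/ATF core (TGACG), the NF-Y box (CCAAT) and the NF-κB consensus. The 4 motifs may overlap one another, and none was checked for binding. A heavy chain, the light chain, a transporter subunit and tapasin are printed because their signals behaved differently below. Each is read 5′ to 3′ toward the gene, with matches to any of the 4 motifs in capitals. HLA-B is chr6:31357180-31357429 (minus strand), B2M is chr15:44711267-44711516 (plus strand), TAP1 is chr6:32853705-32853954 (minus strand) and TAPBP is chr6:33314079-33314328 (minus strand).
HLA-B: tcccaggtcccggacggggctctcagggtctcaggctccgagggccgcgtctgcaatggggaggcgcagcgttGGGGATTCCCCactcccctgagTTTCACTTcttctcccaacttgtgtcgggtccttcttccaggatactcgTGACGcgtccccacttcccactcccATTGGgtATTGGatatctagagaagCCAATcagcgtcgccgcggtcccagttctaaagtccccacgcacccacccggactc
B2M: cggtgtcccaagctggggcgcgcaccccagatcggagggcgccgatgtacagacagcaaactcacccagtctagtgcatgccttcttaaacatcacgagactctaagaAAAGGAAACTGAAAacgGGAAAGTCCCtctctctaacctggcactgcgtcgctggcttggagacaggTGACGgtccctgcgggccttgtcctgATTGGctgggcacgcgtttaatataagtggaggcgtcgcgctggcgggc
TAP1: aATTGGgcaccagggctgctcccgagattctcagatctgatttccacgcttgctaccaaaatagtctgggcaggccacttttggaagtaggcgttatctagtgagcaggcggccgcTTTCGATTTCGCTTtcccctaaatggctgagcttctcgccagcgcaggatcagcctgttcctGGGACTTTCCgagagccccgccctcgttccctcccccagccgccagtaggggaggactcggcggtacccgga
TAPBP: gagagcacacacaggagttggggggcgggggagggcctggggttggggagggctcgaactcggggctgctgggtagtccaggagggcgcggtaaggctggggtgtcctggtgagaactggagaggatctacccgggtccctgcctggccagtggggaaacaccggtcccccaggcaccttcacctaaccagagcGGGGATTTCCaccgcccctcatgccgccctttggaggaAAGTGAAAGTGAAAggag

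The IRF core was present in all 7 promoters, against 20.3% of the 35116 promoters in the table. In HLA-B it lay 155 to 148 bases upstream of the start, on the opposite strand, and in HLA-C and HLA-F within 4 bases of that position. B2M, TAP1, TAP2 and TAPBP each held a pair of overlapping IRF cores, in TAPBP only 18 to 5 bases upstream. The NF-Y box was found in HLA-B, HLA-C, HLA-F, B2M and TAP1 (32.0% of all promoters), the CREB/ATF core in HLA-B, HLA-C, B2M and TAP2 (21.2%) and the NF-κB consensus in HLA-B, HLA-C, B2M, TAP1 and TAPBP (5.2%). In TAP1 the NF-Y box lay 249 to 245 bases upstream, at the far end of the searched stretch. HLA-B, HLA-C and B2M held the IRF core, the CREB/ATF core and the NF-Y box together, which 1.19% of all promoters did. TAP1 has another start in the table, whose 250 upstream bases held none of the 4 motifs. The upstream 250 bases of the 7 genes contained 10 to 19 CpG dinucleotides, the sites at which DNA is methylated, against a median of 11 over all promoters. Methylation was not measured on these arrays. A match is a match of letters only, and HT-29's own alleles were not read.

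**Figure D1:**
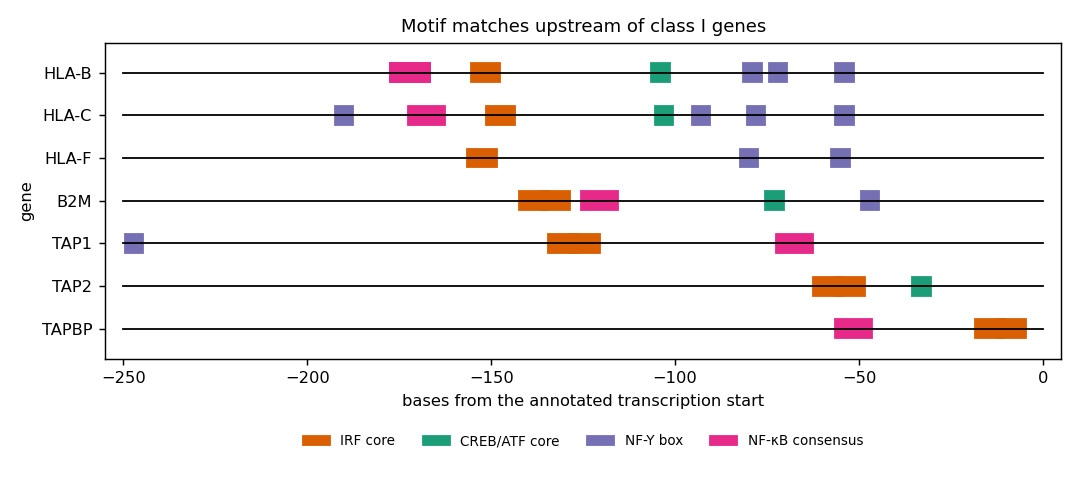
Positions of the 4 motifs in the 250 bases upstream of the annotated start (x axis, bases from the start at 0) for the 7 class I genes with a promoter entry (rows), each coloured block being 1 match on either strand. Every row holds an orange IRF core block, and the blocks of HLA-B, HLA-C and HLA-F line up.

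The arrays differed in ways that bear on the values below. For actin, the control probe sets at the 3' end exceeded those at the 5' end, a gap that widens with RNA breakage or incomplete copying. This actin gap (log2) averaged 2.09 ± 0.19 at 0 µM, 2.59 ± 0.10 at 5 µM and 2.98 ± 0.17 at 10 µM (SD, n = 3 each), and 10 µM replicate 3 had the highest value, 3.17. The gap grew with dose, with no overlap between the doses. DNMT1, the methyltransferase that 5-Aza traps, had log2 signals of 8.50 to 8.70 at 0 µM, 8.77 to 8.94 at 5 µM and 9.20 to 9.37 at 10 µM. Of 12 colon epithelial markers 10 were tested, with a median log2 fold change of -0.42 at 5 µM and -0.59 at 10 µM against 0 µM, and CDX1 and CDX2 lay below the array median on all 9 arrays. EPCAM stayed between 13.31 and 13.64. Among the keratins of the epithelium, KRT19 was called lower at both doses (-1.54 and -1.37) and KRT8 at 10 µM (-1.05, and -0.93 without a call when 10 µM replicate 3 was left out). The adhesion protein gene CEACAM5 was called higher at 5 µM (1.67). With averaged probe sets per gene neither KRT19 (-0.540 and -1.005) nor CEACAM5 (0.68) was called. The mean log2 signal of the 12 markers ran from 10.88 to 11.12 at 0 µM, 10.60 to 10.83 at 5 µM and 10.42 to 10.81 at 10 µM. Of 14 blood cell markers 4 were tested and 7, PTPRC, CD3D and CD8A among them, were below the array median on all 9 arrays. LYZ, encoding lysozyme, had 13.10 to 13.73 on the 9 arrays, and CD14 and CD79A were above the median on all 9, none of the 3 being called. ITGAM, a myeloid integrin, was called higher at 5 µM (at least 2.70-fold), though not with the actin gap as a covariate (limma adjusted p = 0.133). The mean over the 14 was 3.98 to 4.59 at 0 µM, 4.43 to 5.10 at 5 µM and 4.581 to 4.696 at 10 µM. The part of these shifts in the class I values was not tested. Less RNA per cell and fewer cells of a type cannot be told apart in such bulk RNA.

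Most of the 9 genes were higher in the cultures at 5 µM than in the vehicle cultures. With limma over 11756 genes, 6 of the 9 were called higher at 5 µM against 0 µM, namely HLA-B, HLA-C, HLA-F, TAP1, TAP2 and NLRC5, where called means past 2-fold with a p, adjusted by Benjamini-Hochberg, no higher than 0.05. Of all genes tested, 8.6% were called higher. HLA-E passed the p threshold at less than 2-fold (20.2% of all genes passed it in this direction at any fold), and B2M and TAPBP did not pass it. In 8 of the 9 genes, every 5 µM array lay above every 0 µM array, beside 31% of all genes. TAP1 and NLRC5 were called at 10 µM against 0 µM (2 of 9), beside 6.08% of all genes. HLA-B, HLA-C, HLA-F and TAP2 passed the p threshold there with log2 fold changes of 0.89 to 0.97, just under 2-fold (19.8% of all genes passed it in this direction at any fold). None of the 9 was called higher or lower at 10 µM against 5 µM, where 2.08% of all genes were called lower and 0.264% higher (4 of the 9 had an unadjusted limma p under 0.05, beside 32.5% of all genes). The median log2 fold change of the 9 genes was 1.43, 0.93 and -0.43 in the 3 comparisons, and that of all genes tested was 0.04, 0.05 and -0.01. The first and second comparisons share their vehicle arrays, so they are not separate evidence.

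**Figure D2:**
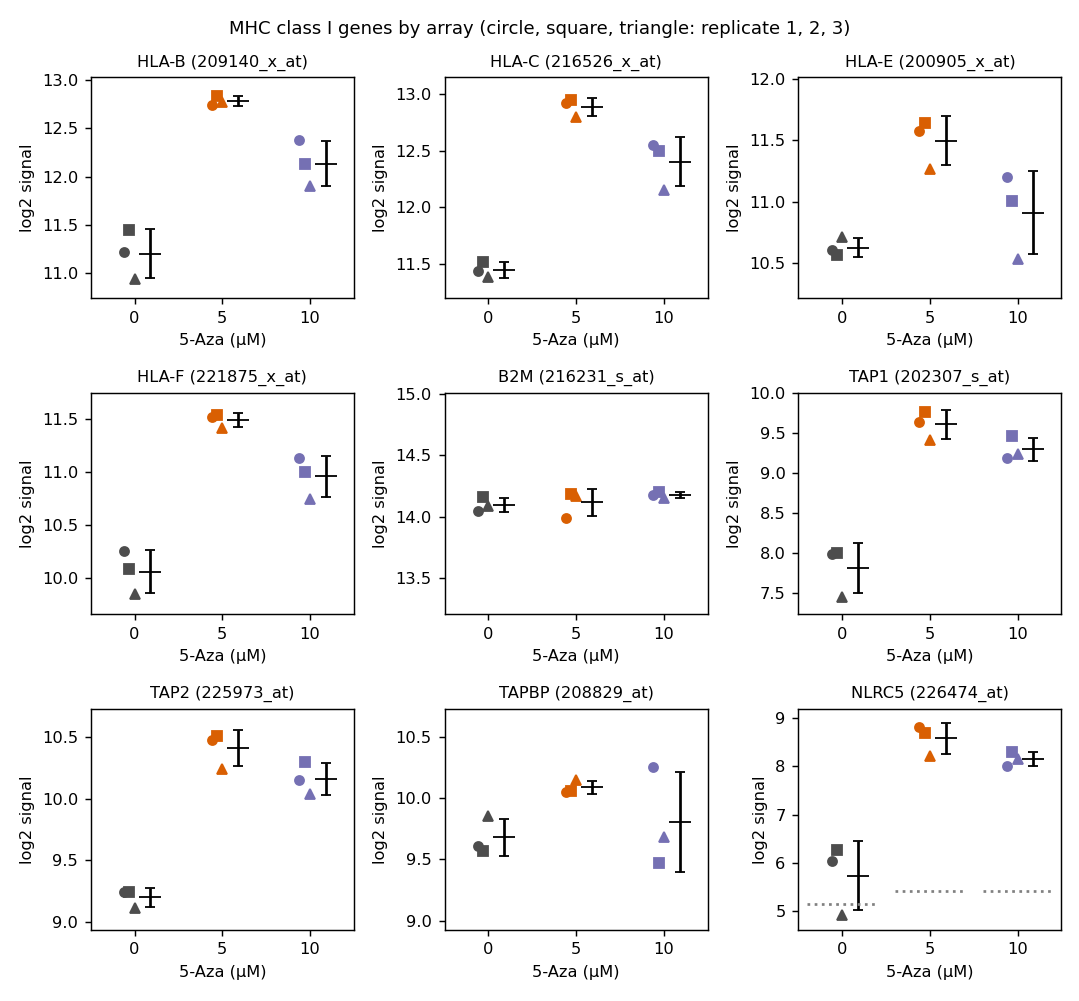
Log2 signal (y axis) of the probe set that stands for each of the 9 genes, by 5-Aza dose (x axis, µM), with 1 symbol per array (circle, square and triangle for replicates 1, 2 and 3), bars at the mean ± SD of 3 arrays, and dotted lines at the mean array median of each dose in the NLRC5 panel. In 8 of the 9 panels every 5 µM array lies above every 0 µM array, and the B2M panel is flat near 14.1.

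HLA-B and HLA-C are classical heavy chains, which present peptides to T cells and differ between people. HLA-B (209140_x_at) had log2 signals of 11.22, 11.45 and 10.94 at 0 µM, 12.74, 12.83 and 12.77 at 5 µM and 12.37, 12.13 and 11.90 at 10 µM. On this probe set the 3 doses did not overlap, with the highest signals at 5 µM. The log2 fold change was 1.58 ± 0.16 (SE) at 5 µM against 0 µM (limma adjusted p = 0.000172, 2.98-fold) and 0.93 ± 0.16 at 10 µM against 0 µM (limma adjusted p = 0.00324, 1.91-fold). Between the treated doses, 10 µM against 5 µM, it was -0.65 ± 0.16 (limma adjusted p = 0.0283). The other HLA-B probe sets, 208729_x_at and 211911_x_at, were called higher at 5 µM against 0 µM (1.31 and 1.01). At 10 µM against 0 µM they had 0.60 and 0.22 (limma adjusted p = 0.0295 and 0.402), and the arrays of 211911_x_at overlapped. HLA-C (216526_x_at) had 11.44, 11.52 and 11.39 at 0 µM, 12.92, 12.95 and 12.80 at 5 µM and 12.55, 12.50 and 12.15 at 10 µM. It followed the same order with no overlap between doses. Its log2 fold changes were 1.44 ± 0.12, 0.95 ± 0.12 and -0.49 ± 0.12 in the 3 comparisons (limma adjusted p = 7.08e-05, 0.000941 and 0.0305).

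HLA-E and HLA-F are nonclassical heavy chains. HLA-E shows leader peptides of other class I chains to the NKG2A and NKG2C receptors of natural killer cells. Its signals (200905_x_at) were 10.61, 10.56 and 10.71 at 0 µM, 11.58, 11.64 and 11.27 at 5 µM and 11.20, 11.00 and 10.53 at 10 µM. All 5 µM arrays lay above all 0 µM arrays, while 10 µM replicate 3 lay just below all 3 vehicle arrays and the other 10 µM arrays lay above them. The log2 fold change was 0.87 ± 0.18 at 5 µM against 0 µM (limma adjusted p = 0.00594) and 0.29 ± 0.18 at 10 µM against 0 µM (limma adjusted p = 0.238). HLA-F, whose protein can reach the surface without bound peptide, had signals (221875_x_at) of 10.26, 10.09 and 9.85 at 0 µM, 11.52, 11.54 and 11.41 at 5 µM and 11.13, 11.01 and 10.75 at 10 µM. Again the doses did not overlap and 5 µM was highest. The log2 fold changes were 1.43 ± 0.14, 0.89 ± 0.14 and -0.53 ± 0.14 (limma adjusted p = 0.000141, 0.00218 and 0.0339).

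The 4 heavy chain genes have 13 probe sets, and 11 of these carry the suffix _x_at, which marks probes that can also bind transcripts of related genes. Class I heavy chains are close in sequence, so the 11 cannot be taken as separate measurements of each gene. The 2 probe sets without this suffix are 200904_at for HLA-E and 221978_at for HLA-F. The HLA-F probe set 221978_at had 5.03, 4.67 and 4.80 at 0 µM, all below the array median, 7.41, 7.25 and 7.07 at 5 µM and 6.99, 6.57 and 6.46 at 10 µM. It was called higher at both doses, at least 4.28-fold at 5 µM and at least 2.88-fold at 10 µM. It entered the test only through its treated arrays, which favours a call of higher. The HLA-E probe set 200904_at had 9.87, 9.84 and 9.92 at 0 µM, 10.42, 10.61 and 10.44 at 5 µM and 10.36, 10.55 and 10.21 at 10 µM. Both doses lay above the vehicle on every array, and its log2 fold changes of 0.61 and 0.50 against 0 µM passed the p threshold at less than 2-fold (limma adjusted p = 0.00751 and 0.0179). So 200904_at passed the threshold at 10 µM and 200905_x_at did not. The difference between them was not tested. The third HLA-E probe set, 217456_x_at, had 0.67 at 5 µM and 0.09 at 10 µM against 0 µM, passing at neither dose (limma adjusted p = 0.112 and 0.827).

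Over all 13 heavy chain probe sets, 9 were called higher at 5 µM against 0 µM, beside 6.38% of all probe sets tested, and in all 13 the 5 µM arrays lay above the 0 µM arrays, beside 27.9%. There were 2 called at 10 µM against 0 µM (208812_x_at of HLA-C and 221978_at of HLA-F), beside 5.46%, and 9 did not overlap, beside 23.7%. The probe set 221978_at, counted among the calls at both doses, entered the test only through its treated arrays. All 13 had a lower mean at 10 µM than at 5 µM. In 11 of them the 10 µM arrays lay below the 5 µM arrays, beside 15.9% of all probe sets. Of the 13, 1 was called lower, beside 1.57%. This was the HLA-C probe set 211799_x_at, with 9.20, 9.22 and 9.24 at 0 µM, 10.70, 10.82 and 10.58 at 5 µM and 9.72, 9.77 and 9.15 at 10 µM. Its 10 µM against 5 µM log2 fold change was -1.15 ± 0.17 (limma adjusted p = 0.00983), and its 10 µM and 0 µM arrays overlapped. HLA-C probe sets thus ranged from -1.15 to -0.24 in this comparison.

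Replicate 3 at 10 µM gave the lowest of the 3 signals in all 13 heavy chain probe sets, and it was also the array with the widest actin gap. Without it, the log2 fold changes at 10 µM against 0 µM were 1.05 for HLA-B, 1.07 for HLA-C, 1.00 for HLA-F and 1.03 for TAP2, each called, so that 6 of 9 genes were called in place of 2. Without 0 µM replicate 2, HLA-B was called as well, making 3 of 9. HLA-B, HLA-C and HLA-F passed the p threshold at 10 µM against 5 µM, each of them lower, beside 8.92% of all genes lower at any fold. None of the 3 passed without 10 µM replicate 3 (limma adjusted p = 0.0984, 0.0828 and 0.113), or without 5 µM replicate 1 (0.0728, 0.0901 and 0.0966), 5 µM replicate 2 (0.0909, 0.102 and 0.105) or 5 µM replicate 3 (0.0902, 0.0753 and 0.086). HLA-C missed the threshold without 0 µM replicate 1 (limma adjusted p = 0.0503) and HLA-F without 0 µM replicate 2 (limma adjusted p = 0.0541). With equal array medians none passed either (limma adjusted p = 0.0547, 0.0879 and 0.0679). With the actin gap in the model as a covariate, the 6 calls at 5 µM against 0 µM held. Their log2 fold changes were larger than without it, from 1.48 for TAP2 to 3.78 for NLRC5. The gap did not overlap between these doses, so the covariate cannot separate RNA quality from dose there. At 10 µM against 5 µM the log2 fold changes were then -0.28 for HLA-B, -0.23 for HLA-C and -0.12 for HLA-F, none passing (limma adjusted p = 0.639, 0.637 and 0.779). No tested gene was then called at 10 µM against 0 µM by limma, while 997 genes, 6 of the 9 among them, had an unadjusted p under 0.05 (8.48% of all). TAP1 and NLRC5 had log2 fold changes of 2.28 and 4.08 (limma adjusted p = 0.18 for both). The part of RNA quality in the difference between any 2 of the doses, the vehicle included, cannot be told apart from the dose.

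**Figure D3:**
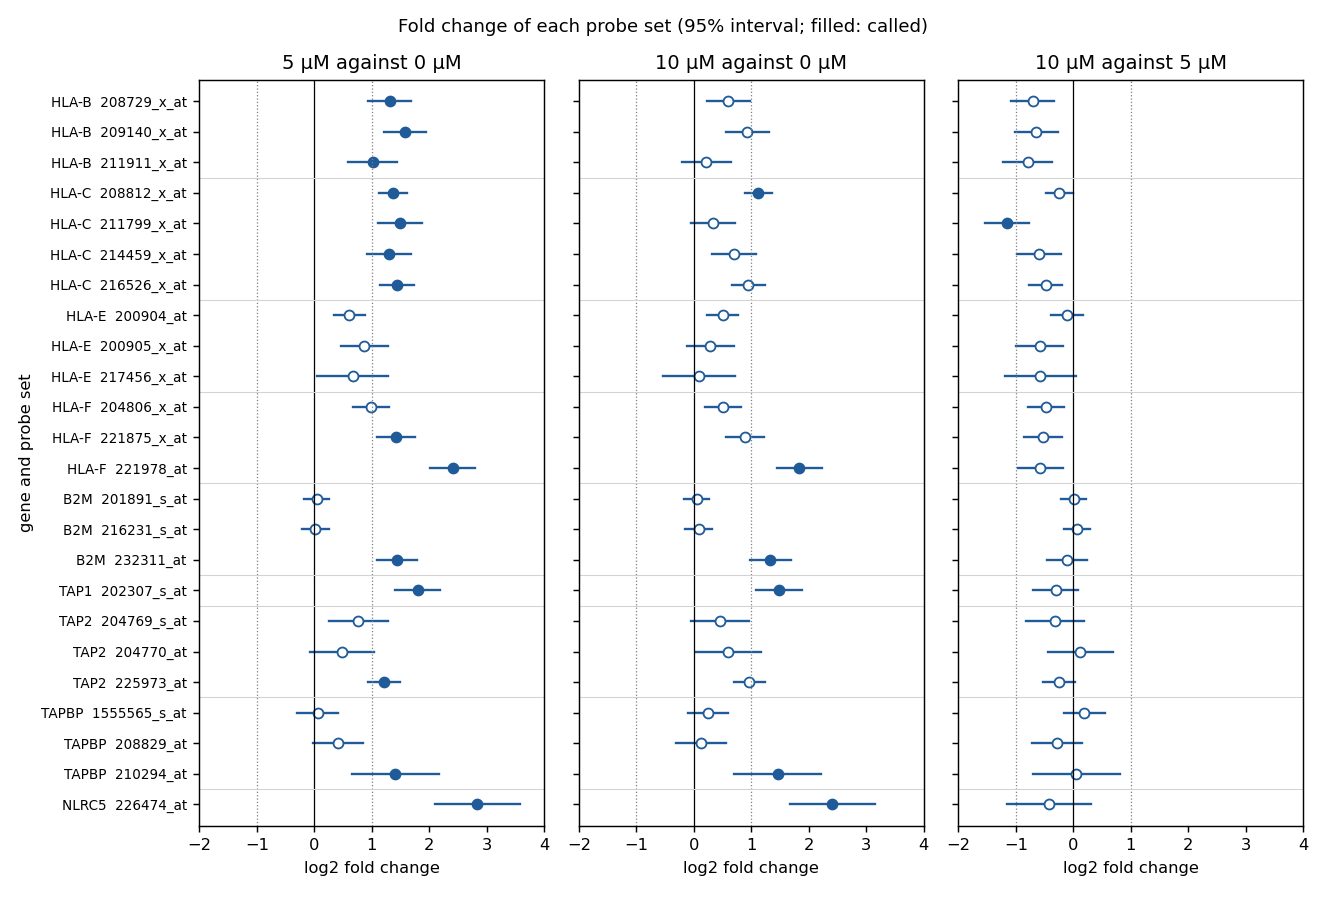
Log2 fold change (x axis, point) with its 95% interval (line) for the 24 tested probe sets (rows, grouped by gene) in the 3 comparisons (panels), with filled points for called probe sets and dotted lines at 2-fold. The heavy chain points lie right of 0 in the left and middle panels and left of 0 in the right panel. Some of their intervals cross 0 in the middle and right panels. The B2M points of 201891_s_at and 216231_s_at sit near 0 in all panels. The points of HLA-F 221978_at and TAPBP 210294_at rest on vehicle signals below the array median.

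B2M encodes beta-2-microglobulin, the light chain that pairs with class I heavy chains. Its 3 probe sets disagreed. The brightest, 216231_s_at, had 14.05, 14.16 and 14.08 at 0 µM, 13.99, 14.19 and 14.17 at 5 µM and 14.18, 14.20 and 14.16 at 10 µM. The doses overlapped, with a log2 fold change of 0.02 at 5 µM against 0 µM (95% interval -0.19 to 0.23, limma adjusted p = 0.893) and 0.08 at 10 µM against 0 µM (-0.12 to 0.29, limma adjusted p = 0.504). The second, 201891_s_at, gave 0.04 and 0.05. The third, 232311_at, had 7.365, 7.001 and 7.422 at 0 µM, 8.81, 8.65 and 8.65 at 5 µM and 8.40, 8.54 and 8.83 at 10 µM. There all treated arrays lay above all vehicle arrays, and the probe set was called higher by 1.44 ± 0.16 at 5 µM and 1.33 ± 0.16 at 10 µM (limma adjusted p = 0.000487 and 0.00126). The signals near 14.1 stand close to the highest signal of any probe set, which was 14.50 to 14.94 across the arrays. Whether they could still record a rise was not tested, and what 232311_at binds was not examined.

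TAP1 and TAP2 form the transporter that feeds peptides into the endoplasmic reticulum. TAP1 (202307_s_at, its sole probe set) had 7.982, 7.999 and 7.455 at 0 µM, 9.64, 9.76 and 9.42 at 5 µM and 9.19, 9.46 and 9.24 at 10 µM. Every treated array lay above every vehicle array, and the 2 treated doses overlapped. The log2 fold change was 1.80 ± 0.17 at 5 µM against 0 µM (limma adjusted p = 0.000126, 3.47-fold), 1.48 ± 0.17 at 10 µM against 0 µM (limma adjusted p = 0.000591, 2.80-fold) and -0.31 ± 0.17 at 10 µM against 5 µM (limma adjusted p = 0.238). TAP2 (225973_at) had 9.24, 9.24 and 9.11 at 0 µM, 10.48, 10.51 and 10.25 at 5 µM and 10.16, 10.30 and 10.04 at 10 µM. The pattern was the same at a smaller size, with log2 fold changes of 1.22 ± 0.11 at 5 µM (limma adjusted p = 0.000115) and 0.97 ± 0.11 at 10 µM (limma adjusted p = 0.000635) against 0 µM. With arrays scaled to equal medians, which moved the median of all genes to -0.22, TAP2 had 0.95 at 5 µM and was no longer called.

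The other tested TAP2 probe sets were dimmer. The probe set 204769_s_at had a log2 fold change of 0.77 at 5 µM (limma adjusted p = 0.0369) and 0.45 at 10 µM (limma adjusted p = 0.16) against 0 µM, and 204770_at had 0.48 and 0.60 (limma adjusted p = 0.194 and 0.102). All of these were below 2-fold.

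TAPBP encodes tapasin, which links the transporter to the empty class I molecule and helps select its peptide. The brightest probe set, 208829_at, had 9.61, 9.57 and 9.85 at 0 µM, 10.05, 10.06 and 10.15 at 5 µM and 10.26, 9.47 and 9.69 at 10 µM. The 5 µM arrays lay above the vehicle arrays, and the 10 µM arrays were spread over both. The log2 fold change was 0.41 (95% interval -0.02 to 0.83, limma adjusted p = 0.126) at 5 µM and 0.12 (-0.30 to 0.55, limma adjusted p = 0.633) at 10 µM against 0 µM. The probe set 1555565_s_at gave 0.06 and 0.25, without a call. The dim probe set 210294_at was called at both doses, but its vehicle arrays were all below the array median, so that the rise is bounded only as at least 1.44-fold at 5 µM and at least 1.45-fold at 10 µM.

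NLRC5 is the transactivator of the class I genes, and in mice its loss lowers class I expression in lymphocytes most. Its probe set (226474_at) had the largest log2 fold change of the 9 genes. The signals were 6.04, 6.27 and 4.92 at 0 µM, the last of them below the array median, 8.82, 8.69 and 8.22 at 5 µM and 8.001, 8.290 and 8.161 at 10 µM. Every treated array was above every vehicle array by more than the vehicle arrays differed among themselves. The log2 fold change was 2.84 ± 0.32 at 5 µM (limma adjusted p = 0.000343, 7.15-fold) and 2.41 ± 0.32 at 10 µM (limma adjusted p = 0.00118, 5.32-fold) against 0 µM. Between the treated doses it was -0.43 (95% interval -1.16 to 0.30, limma adjusted p = 0.390). Without 0 µM replicate 3, the dim array, it was 2.43 at 5 µM and 2.00 at 10 µM, called at both.

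The remaining pathway genes came from lists drawn up by role. None of 9 chaperones and peptide trimming factors was called by limma against 0 µM at either dose, and 6 at 5 µM and 5 at 10 µM had an unadjusted p under 0.05, beside 44.6% and 45.2% of all genes. ERAP1, which trims peptides in the endoplasmic reticulum, had log2 fold changes of 0.60 and 0.46, and CALR, the chaperone calreticulin, 0.54 and 0.28. Others of the list were nearer 0, with -0.06 and -0.14 for CANX, 0.13 and 0.14 for ERAP2 and 0.03 and -0.18 for UGGT1. PDIA3, the disulfide isomerase that pairs with tapasin, was called lower at 10 µM against 5 µM, with 10.91, 10.53 and 10.03 at 10 µM against 11.91, 11.91 and 12.14 at 5 µM (log2 fold change -1.50 ± 0.23, limma adjusted p = 0.0059). It was not called by the test per gene without eBayes (adjusted p = 0.0695), with the actin covariate (adjusted p = 0.21) or with averaged probe sets (log2 fold change -0.79). The median of the 9 was 0.54 at 5 µM and 0.14 at 10 µM against 0 µM.

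The immunoproteasome is a form of the proteasome with exchanged catalytic subunits that interferon induces, and PSMB8 and PSMB9 lie beside the TAP genes on chromosome 6. PSMB9 had 6.30, 6.64 and 5.60 at 0 µM, 7.91, 8.04 and 7.80 at 5 µM and 7.37, 8.24 and 7.54 at 10 µM. It was called higher at both doses, by 1.74 ± 0.29 and 1.54 ± 0.29 against 0 µM (limma adjusted p = 0.00233 and 0.0051). Its 10 µM call was lost without 10 µM replicates 2 and 3 (1.20, adjusted p = 0.0539), by the test per gene without eBayes (adjusted p = 0.0852) and with the actin covariate (adjusted p = 0.415). PSMB8 rose by 0.94 and 0.67, below 2-fold (limma adjusted p = 0.0107 and 0.0444). PSMB10, the other exchanged catalytic subunit, had -0.07 and -0.16, and the activator subunit PSME1 0.45 and 0.35, without passing. The 3 constitutive subunits that these replace were not called by limma, and 0 at 5 µM and 2 at 10 µM had an unadjusted p under 0.05 against 0 µM, with the same shares over all genes. PSMB5 had -0.12 and -0.38, PSMB6 -0.19 and -0.59, and PSMB7 0.24 and -0.14 at 5 µM and 10 µM against 0 µM.

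Of the factors that bind the class I promoter boxes, 11 were tested and none was called by limma at either dose, while 4 at 5 µM and 6 at 10 µM had an unadjusted p under 0.05 against 0 µM, beside 44.6% and 45.2% of all genes. The median log2 fold change was 0.03 at 5 µM and 0.00 at 10 µM against 0 µM, and at 5 µM 6 of the 11 had a positive value. NFYA, a subunit of NF-Y, passed the p threshold at 0.86 and 0.92, below 2-fold (limma adjusted p = 0.000953 and 0.000982). RFXANK, a subunit of the RFX complex, had -0.11 at 5 µM and -0.57 at 10 µM against 0 µM (limma adjusted p = 0.428 and 0.00379). IRF1, the interferon regulatory factor best known at class I promoters, had 0.30 and -0.14, without passing.

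Genes of the interferon response, a list of 32 that were all tested, had 25 called higher at 5 µM and 15 at 10 µM against 0 µM, and 7 called lower at 10 µM against 5 µM, beside 8.6%, 6.08% and 2.08% of all genes. The 15 became 8 without 0 µM replicate 3. The 7 became 3 without 10 µM replicate 3, and 4 without 10 µM replicate 1 or any 1 of the 5 µM arrays. With the actin covariate both counts were 0, and by the test per gene without eBayes they were 3 and 1. The median log2 fold changes of the list were 1.49, 0.84 and -0.51. IFITM1, which blocks virus entry, had 3.02 and 1.84 against 0 µM, and BST2, which tethers virus particles, 1.56 and 0.67. HERC5, the ligase that attaches ISG15 to proteins, had the smallest p of the list, with vehicle signals all below the array median and a rise of at least 9.87-fold at 5 µM and at least 4.49-fold at 10 µM. MX2, a GTPase that restricts viruses, had 2.25 and 1.51, XAF1 2.08 and 2.05 and IFI35 1.38 and 0.55, where 0.55 was below 2-fold. The list was composed with earlier results of these arrays known, so its direction is not independent evidence. Of 12 interferon receptor and signalling genes tested, IFNLR1, the receptor chain for type III interferon, was the one called (1.20 ± 0.19 at 5 µM against 0 µM, limma adjusted p = 0.00202). Its call was lost without 0 µM replicate 2 (0.99), with quantile normalization (0.98), with equal array medians (0.94) and with the actin covariate (1.16, limma adjusted p = 0.141).

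**Figure D4:**
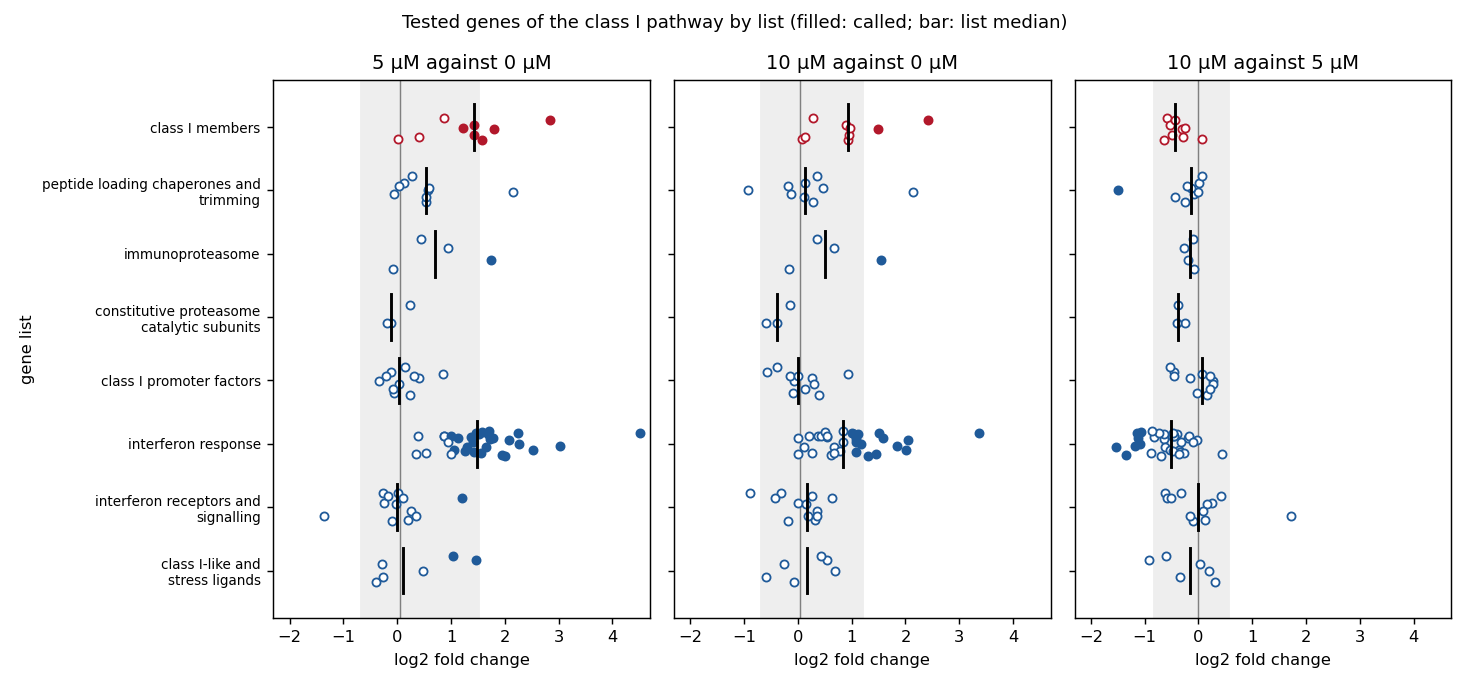
Log2 fold change (x axis) of each tested gene (points, filled where called) by list (rows, the 9 class I genes in red) in the 3 comparisons (panels), with black bars at list medians, a grey line at the median of all 11756 genes and a grey band over their 5th to 95th percentile. The class I and interferon response rows have the highest medians at 5 µM against 0 µM. At 10 µM against 5 µM every row except the class I promoter factors has a median below 0. There the class I median is -0.43, that of the interferon response -0.51 and that of the constitutive proteasome subunits -0.38.

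Among the 9 genes themselves, the profiles over the 9 arrays were least alike for B2M and TAPBP. B2M had r of -0.04 to 0.302 with the other 8 genes, and TAPBP 0.385 to 0.712 with the genes other than B2M. Pearson's r over the 36 pairs had a median of 0.838 and ran from -0.04 to 0.993, highest for NLRC5 with TAP1. The arrays fall into 3 doses and share their scaling, so r carries the dose difference and is given as a description. Each heavy chain is represented here by an _x_at probe set, so r among them can also carry shared transcripts. The mean standardised signal of the 9 genes was ranked against 11747 other genes in the same way. The 10 closest were PRSS2 (r = 0.988), FCGBP (0.985), CYP27B1 (0.985), PI3 (0.984), DAB2 (0.984), MCAM (0.983), SFTA2 (0.982), INHBE (0.982), AIF1L (0.981) and APOL1 (0.981). The r of the same mean signal with the actin gap was 0.624.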

How the data were processed

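Gene expression of 9 HT-29 cultures, 3 per dose by the sample labels, was measured on Affymetrix U133 Plus arrays. Log2 signals are what the authors deposited. The submitters' processing notes name RMA and affy 1.14.2, but the values have the form of MAS 5.0 signals, being log2 of multiples of 0.1 with a 2% trimmed mean of 250.1 on each array, scaled by 1 factor per array. The number of arrays limits the precision. Cultures were labelled as biological replicates.

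Probe sets with 1 gene symbol (41091 of 54675) were used, and 6 probe sets with a missing value were left out. A gene was represented by its brightest probe set and tested when it was at or above the median of each of the 3 arrays of some group. Tests were two-sided, from limma (version 3.58.1, R 4.3.3), by lmFit and eBayes with all 9 arrays and 1 mean per dose, with Benjamini-Hochberg adjustment over all 11756 genes or 27141 probe sets. A bound given as "at least" raised low signals to the array median. Genes and probe sets given such a bound entered the test only through treated arrays, which favours a call of higher. The code was tested on simulated data. Alternatives were other floors, probe set choices, scalings and tests, a replicate block, an actin covariate and leaving out arrays.

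All 9 genes were named, with up to 6 called genes of each related list by smallest p (or, without any call, the 2 of smallest p), all proteasome subunits listed, the 10 genes of closest profile, and DNMT1. EPCAM, CDX1, CDX2, PTPRC, CD3D, CD8A, LYZ, CD14, CD79A, ERAP1, CALR, CANX, ERAP2, UGGT1, IRF1, MICA and CIITA were named after their values were seen. The members and lists were chosen with earlier results of these data known. Promoters came from RefSeq. Certain listed genes are not reported here. Plots were made in Python 3.11.15 (matplotlib 3.10.9).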

Additional observations from a re-analysis of the deposited data

How the results depend on the processing

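At 5 µM against 0 µM the number of the 9 genes called was 6 without any 1 array and 5 to 7 under the other settings. At 10 µM against 0 µM it was 2 to 6 without 1 array (6 without 10 µM replicate 3) and 0 to 6 otherwise. It was 4 with averaged probe sets per gene, without _x_at and _s_at probe sets, and with quantile normalization, 5 without 10 µM replicates 2 and 3, 6 with no fold threshold and 0 with the actin covariate. At 10 µM against 5 µM it was 0 except with no fold threshold (3). The numbers of all genes called were 1094 to 1189, 755 to 1088 and 157 to 381 without 1 array. With probe sets in place of genes they were 2052, 1903 and 522, with no fold threshold 3941, 3893 and 1864, and with the actin covariate 663, 0 and 12. Student's test per gene gave 437 at 10 µM against 0 µM and 114 at 10 µM against 5 µM, where array weights gave 636. The cause of these changes was not tested beyond what each setting alters by construction.

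Scaling to equal medians moved the median of all genes to -0.22 and -0.23 at 5 µM and 10 µM against 0 µM. The share of calls that were higher was then 61.9% and 49.1%, with quantile normalization 78.7% and 68.9%, and with the deposited scaling 86.7% and 80.2%.

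Sign changes occurred in 29 fold changes, 16 of them of the 9 genes. B2M at 5 µM against 0 µM had -0.25 with equal medians, -0.037 with the actin covariate and -0.017 to 0.080 without 1 array. B2M at 10 µM against 0 µM had -0.19 with equal medians and -0.017 with the actin covariate, and at 10 µM against 5 µM -0.013 with the mean of probe sets, -0.11 without _x_at and _s_at and -0.018 with quantile normalization. TAPBP had -0.15 with equal medians and -0.10 to 0.29 without 1 array at 10 µM against 0 µM, and 0.17 without 10 µM replicates 2 and 3 at 10 µM against 5 µM. HLA-E at 10 µM against 0 µM had -0.022 with array weights. At 10 µM against 5 µM with the actin covariate, TAP1 had 0.039 and NLRC5 0.30. Outside the 9 genes, at 10 µM against 0 µM, PSMB7 had 0.41 with the mean of probe sets and 0.0091 with quantile normalization, and PSMB10 0.030 with array weights and -0.28 to 0.003 without 1 array. ITGAM had -0.50 with array weights, and PSME1 -0.010 with the actin covariate and -0.087 without 10 µM replicates 2 and 3. IFNE had 0.059 with array weights, 0.072 with the actin covariate, 0.29 without 10 µM replicates 2 and 3, and -0.23 to 0.15 without 1 array. PSMB7 at 5 µM against 0 µM had -0.028 with equal medians.

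Replicate numbers were not found to pair the cultures, since residuals of arrays with the same number correlated at -0.09 to 0.18. With the replicate block 6, 2 and 0 of the 9 genes were called in the 3 comparisons, and 1167 of all genes at 5 µM against 0 µM, so the block changed no call of the 9.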

Other observations

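Of 12 ligands of natural killer cell receptors and other class I-like genes on the array, 6 were tested, with a median log2 fold change of 0.12 at 5 µM and 0.18 at 10 µM against 0 µM. ULBP2, a ligand of the activating receptor NKG2D, had 8.69, 8.94 and 8.94 at 0 µM, 10.18, 10.36 and 10.41 at 5 µM and 9.48, 9.45 and 9.27 at 10 µM. It was called higher at 5 µM against 0 µM (1.46 ± 0.11, limma adjusted p = 5.08e-05) and passed the p threshold below 2-fold at 10 µM against 0 µM (0.55) and, lower, at 10 µM against 5 µM (-0.91). PROCR, the endothelial protein C receptor, which has a class I-like fold, was called at 5 µM against 0 µM (1.04 ± 0.11, limma adjusted p = 0.000205), although not without 0 µM replicate 1 (1.00, under 2-fold) or with equal array medians (0.77) or the actin covariate (0.99). MICA, another NKG2D ligand, had 0.49 and 0.68 against 0 µM, both passing below 2-fold.

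Class II genes were mostly dim. Of 12, 4 were tested, and CIITA, the class II relative of NLRC5, lay below the array median on all 9 arrays. HLA-DOB, which moderates class II peptide exchange and lies close to TAP2, had 2.14, 2.87 and 3.90 at 0 µM, all below the array median, 5.95, 5.89 and 5.67 at 5 µM and 5.90, 6.18 and 5.85 at 10 µM. It was called higher at both doses, and the rise is bounded only as at least 1.61-fold at 5 µM and at least 1.78-fold at 10 µM. With low signals raised to the array median both calls were lost (0.69 and 0.83, below 2-fold). They were also lost with the actin covariate (1.88 and 1.24, limma adjusted p = 0.126 and 0.832). Of 7 interferon genes on the array, IFNE alone was tested. Its signals were 8.74, 8.33 and 8.93 at 0 µM, 7.94, 7.45 and 7.45 at 5 µM and 8.96, 8.19 and 8.68 at 10 µM, and it was called lower at 5 µM against 0 µM (log2 fold change -1.06 ± 0.24, limma adjusted p = 0.00943). This call was lost at just under 2-fold without 0 µM replicate 3 (-0.92), without 5 µM replicate 2 (-0.97) and without 5 µM replicate 3 (-0.97), and with the actin covariate it was lost by p as well (-0.98, limma adjusted p = 0.291).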
